A study of Mus musculus with 2 samples.

Results

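The genes described here belong to interferon signalling and innate immunity, and were taken by name from the expression table of F123 mouse embryonic stem cells (mESCs). The name rule took interferons and their receptors (Ifn), interferon-induced genes (Ifi followed by a digit, Ifih, Ifit, Isg, Oas, Gbp, Bst2), interferon regulatory factors (Irf) with their STAT partners, sensors and an adaptor (Tlr, Nlrp, Aim2, Mavs) and the Apobec genes. It found 131 genes of 29833, which hold 165 gene records of 37178. A gene record is 1 gene with 1 transcript biotype, protein-coding or lncRNA, represented by 1 transcript. By role, the members were 21 ligands, 5 receptors, 40 sensors with the adaptor Mavs, 14 transcription factors and their partners, 46 effectors, 4 Apobec genes and the antisense gene Ifngas1. Mx1 and Mx2, which the rule also names, were not analysed here. The rule used names and no measured value.

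F123 is a male hybrid mESC line from a cross of a CAST father with an S129/Jae mother, so each autosome is present as 1 CAST and 1 S129 copy. Whether both strains hold the same number of copies of each gene was not tested. Total RNA of 2 biological replicates was sequenced after the cells had been taken off feeder fibroblasts for at least 2 passages, and the deposited table pools both replicates. The comparison is therefore between the CAST allele and the S129 allele within 1 untreated line. Strain and parent of origin cannot be told apart in this single cross.

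Interferons are secreted ligands. Type I interferons (Ifna, Ifnb1, Ifne, Ifnk) bind Ifnar1 with Ifnar2, the type II interferon Ifng binds Ifngr1 with Ifngr2, and type III interferons (Ifnl) bind Ifnlr1 with a shared partner chain. The receptors activate STAT proteins, which together with Irf9 bind the interferon-stimulated response element (ISRE) or, as a STAT pair, bind the gamma-activated sequence (GAS), and the genes so induced act against viruses. Mouse embryonic stem cells are known to make little interferon and to respond to it weakly.

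Summed over all gene records, the 2 replicates together gave 16343693 allelic reads, 8230836 from CAST and 8112857 from S129, that is 50.4% from CAST. Records that overlap can hold the same reads, so this sum counts some reads more than once. An allelic read is a read counted at a position where the parental genomes differ (a variant), and a read that covers several variants is counted at each. The paper states that variants were filtered on mappability and on a minimum read coverage. A record without a counted variant may therefore still differ between the parents. The Ifnk record, however, holds 8 allelic reads at 1 variant, below the minimum that the paper states. How the coverage filter was applied to these counts was not tested. The mESC identity was checked with 10 markers, of which 10 reached 1 TPM (12.1 to 381 TPM, summing to 1490 TPM). TPM is a transcript level scaled by the length of the record and by the size of the library. Of 10 fibroblast feeder markers 4 reached 1 TPM (0.026 to 74.3 TPM, sum 86.1 TPM), and of 10 macrophage and other blood markers 3 did (0.0025 to 35.7 TPM, sum 39.1 TPM). Vim at 74.3 TPM and Cd68 at 35.7 TPM made up most of these sums. No marker of either list was at 0, while Dcn, Lum and Twist2 (at most 0.037 TPM) and Ptprc (0.0025 TPM) were close to it. The part of other cells in the levels below was not tested, and fewer cells with a transcript cannot be told apart from less RNA per cell. Replicate spread could not be computed from the pooled table, so each interval and standard error below covers counting error only.

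The promoters of the members were searched for the ISRE and GAS motifs. RefSeq (build GRCm38.p6, the C57BL/6J reference, which is neither parent) listed a window of 250 bases before to 50 bases after the start for 113 of the 131 genes. The ISRE core, spelled GAAA, any 2 bases and GAAA again and searched on both strands, was present in 44 of these 113 genes (38.9%) and in 1079 of all 27025 genes with such windows (3.99%). The GAS core TTCNNNGAA, a palindrome, was present in 30 of the 113 (26.5%), against 9.55% of all genes. A match is a description of letters and not a bound site. The stretches around the matches are given for 8 members that span the results below, from genes under 1 TPM (Isg15, Ifit1, Ifit3, Gbp2) to genes above it (Oas1a, Oas1g, Bst2, Stat2). They run 5′ to 3′ on the strand of the gene, with matches to the ISRE core in capitals.
Oas1a (chr5:120907526-120907560, minus strand): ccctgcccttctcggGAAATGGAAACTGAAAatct
Oas1g (chr5:120887614-120887646, minus strand): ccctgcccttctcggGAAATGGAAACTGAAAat
Isg15 (chr4:156200860-156200911, minus strand): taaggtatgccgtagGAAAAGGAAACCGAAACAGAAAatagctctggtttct
Ifit1 (chr19:34640770-34640828, plus strand): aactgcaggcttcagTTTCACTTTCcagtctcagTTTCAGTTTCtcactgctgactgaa
Ifit3 (chr19:34583358-34583431, plus strand): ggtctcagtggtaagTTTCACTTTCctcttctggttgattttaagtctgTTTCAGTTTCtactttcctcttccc
Bst2 (chr8:71537572-71537617, minus strand): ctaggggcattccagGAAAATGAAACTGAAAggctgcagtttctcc
Stat2 (chr10:128270261-128270300, plus strand): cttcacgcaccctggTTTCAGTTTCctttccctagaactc
Gbp2 (chr3:142620589-142620628, plus strand): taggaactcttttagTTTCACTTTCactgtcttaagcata
The stretches of Oas1a and Oas1g were the same letters as far as the shorter one runs, and in both the paired matches overlap by 4 bases. Matches overlapped likewise in Bst2 and in Isg15, while Ifit1 and Ifit3 had 2 separate matches each.

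The motif was found in genes of every level. Of the members with a window, 7 of 37 genes at 1 TPM or more held the ISRE core (18.9%), namely Apobec3, Bst2, Ifitm2, Ifitm3, Oas1a, Oas1g and Stat2. Of those under 1 TPM, 37 of 76 did (48.7%). By role the core was found in 11 of 20 ligands, all 11 of them Ifna genes with Ifnab included, in 0 of 5 receptors, 12 of 36 sensors, 2 of 12 transcription factors (Stat2 and Irf2), 18 of 35 effectors and 1 of 4 Apobec genes.

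**Figure D1:**
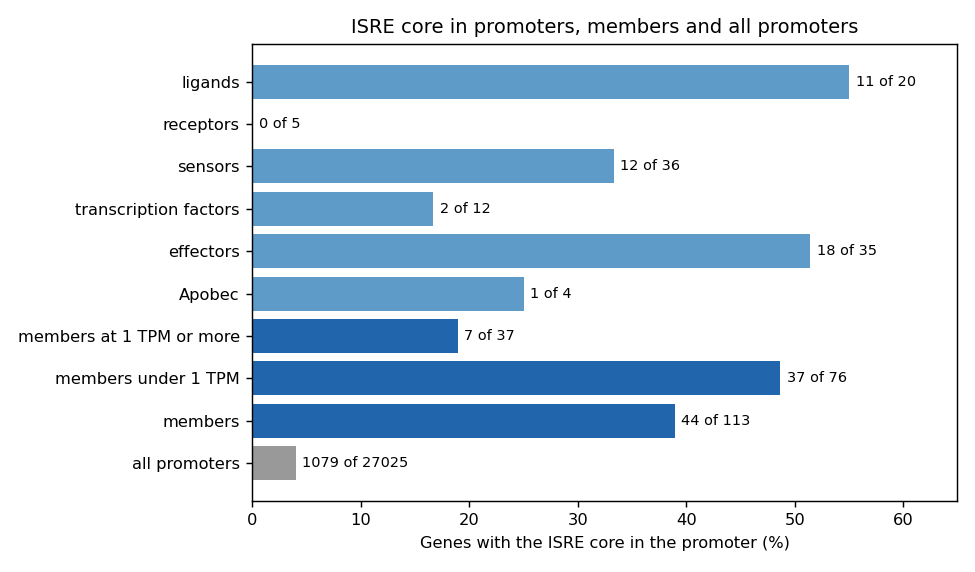
Share of genes (%) whose RefSeq promoter window holds the ISRE core, by role, by level and for all genes, with the number of genes at the end of each bar. The share was 55.0% in ligands and 51.4% in effectors, against 3.99% of all promoters.

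Most of the members were below the level used here to call a gene expressed, 1 TPM over exons and introns. Of the 165 records, 52 (31.5%) reached 1 TPM, from 43 genes, against 48.3% of all records. Another 29 (17.6%) were listed at 0 TPM, against 12.4% of all records. The median was 0.187 TPM in members and 0.856 TPM in all records. Among records at 1 TPM or more, the median of the members (7.45 TPM) was not below that of all records (6.24 TPM). Transcription factors were expressed in 15 of 18 records, receptors in 6 of 8 and Apobec records in 5 of 6, whereas effectors were in 15 of 56, sensors in 10 of 55 and ligands in 1 of 21.

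**Figure D2:**
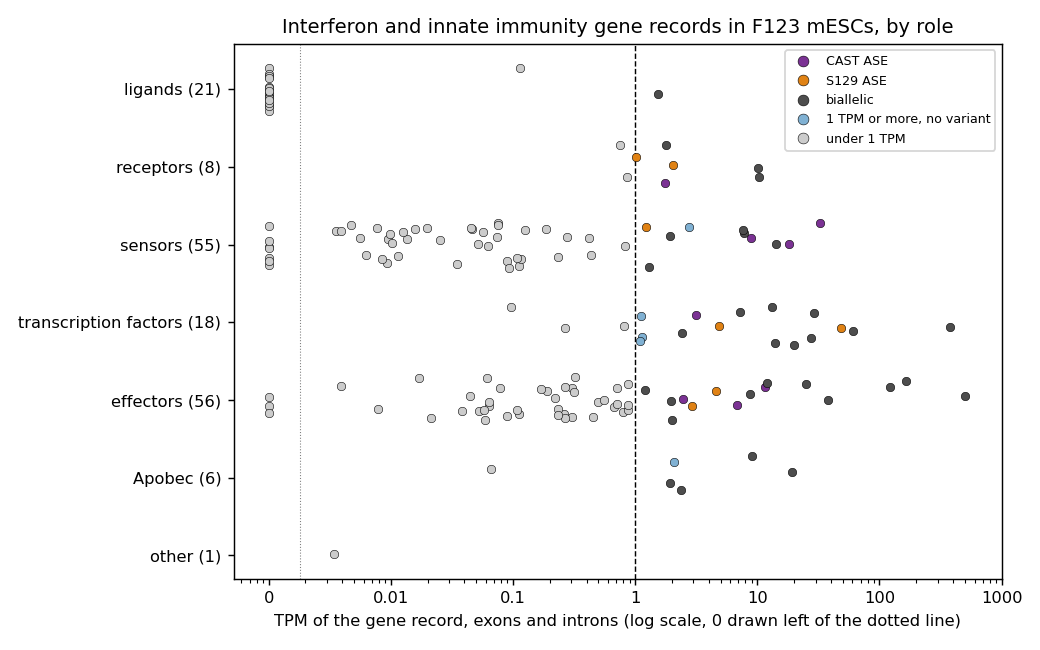
TPM over exons and introns of each of the 165 records (log scale, 0 drawn apart at the left), by role, coloured by allelic class, with the dashed line at 1 TPM. Ligands sit at 0 with 2 exceptions, while most transcription factors and receptors lie right of the line, and levels reach 497 TPM among effectors.

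Nearly all ligands were at 0 by this measure. Of the 21 ligand records, 19 were listed at 0 TPM, including Ifnb1, Ifng, Ifne, Ifnl2, Ifnl3 and 13 of 14 Ifna genes, Ifnab included. Ifnl2 and Ifnl3 lie wholly inside Samd4b (8.43 TPM), Ifna1 shares 37.3% and Ifnz 68.4% of its 75-base stretches (the read length) with other genes, while Ifnb1, Ifne and Ifna4 share none. How reads that match several genes bear on these zeros was not tested. Ifna13 was listed at 0.114 TPM. Ifnk, a type I interferon first described in skin keratinocytes, was the exception with 1.53 TPM over exons and introns but 0.583 TPM over exons. Its record lies wholly inside Mob3b on the opposite strand (1.05 TPM), and its 8 allelic reads, 3 from CAST and 5 from S129, came from 1 intronic variant. Ifngas1, an antisense lncRNA near Ifng, was at 0.0034 TPM.

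To ask which members were expressed unequally from the 2 parental alleles, allelic reads were compared in each record. A record was called allele-specifically expressed (ASE) where it reached 1 TPM, the alleles differed at least 2-fold and the two-sided exact binomial test gave an adjusted p of at most 0.05 over all records with allelic reads. Other tested records were called biallelic. Of 47 member records tested, from 39 genes, 15 were ASE (31.9%), against 14.1 percent of the 15935 records tested in the whole table. Of these 15, 8 were higher on CAST (17.0%, against 8.33 percent in the table) and 7 were higher on S129 (14.9%, against 5.78 percent). The 15 records belong to 14 genes, since Aim2 has 2. The median absolute log2(CAST/S129) was 0.60 in members and 0.36 in all tested records. The median log2(CAST/S129) was -0.19 in members, with 19 records higher on CAST and 28 higher on S129, and 0.01 in all tested records. A member record had a median of 336 allelic reads over 7 variants, against 397 reads over 13 variants in all tested records. The members' counts were not tested as a set.

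**Figure D3:**
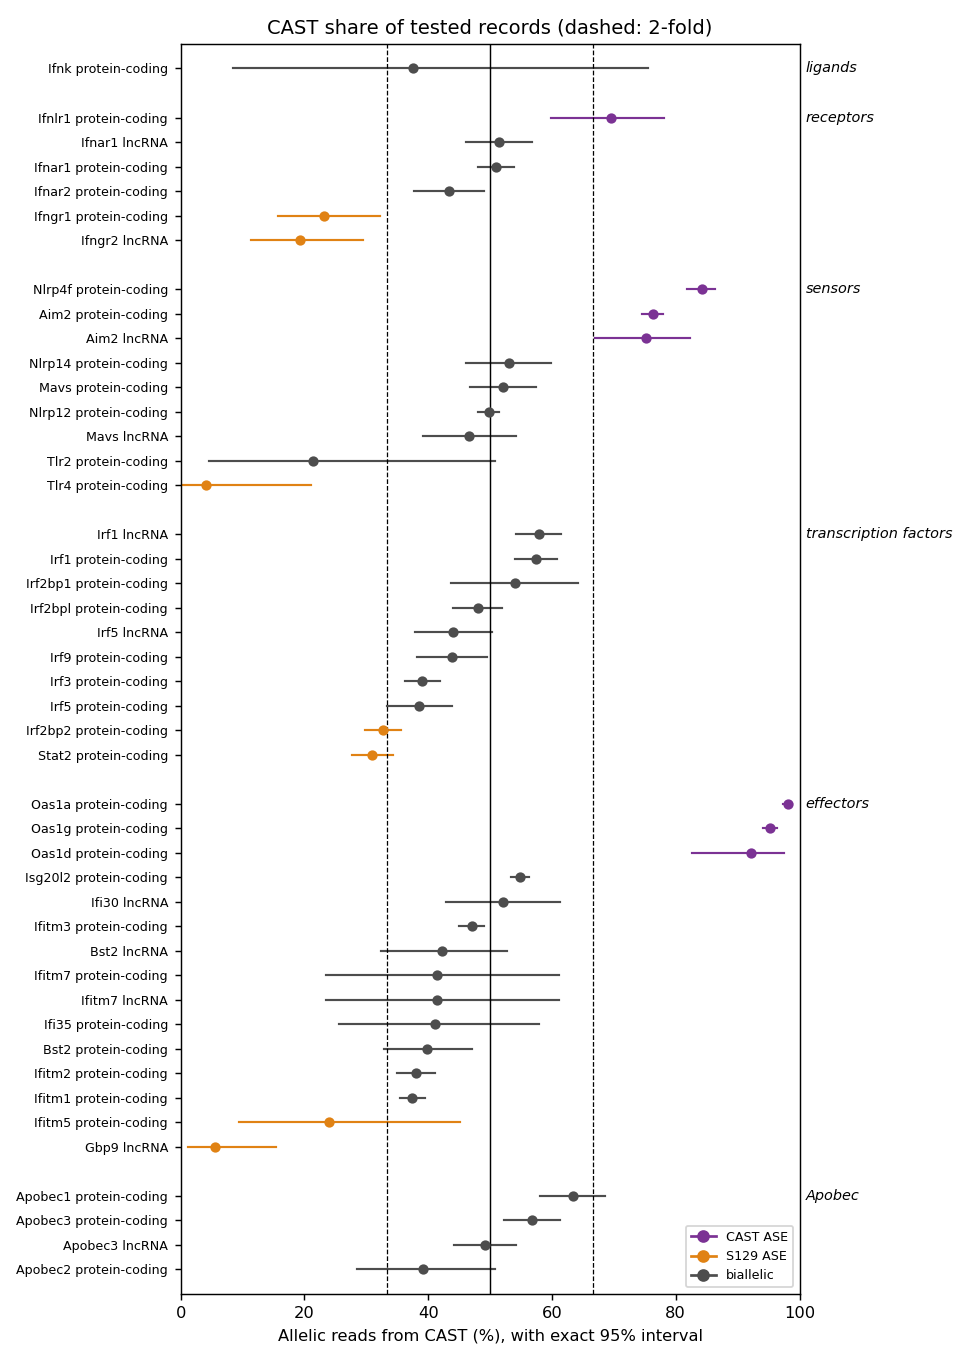
Percentage of allelic reads from CAST in the tested member records described here, by role, with exact 95% intervals. The solid line marks equal shares and the dashed lines a 2-fold difference. Oas1a, Oas1g and Oas1d lie above 92% and Gbp9 lncRNA and Tlr4 below 6%, and most records were biallelic.

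Interferon receptors were expressed in all 5 genes, and 3 of the 5 were ASE, against 1980 of 12067 tested genes in the table. Ifnar1 and Ifnar2, the chains of the type I receptor, were biallelic. The protein-coding Ifnar1 record had 611 CAST and 588 S129 reads at 10.2 TPM, its lncRNA record 181 and 171 reads at 10.3 TPM, and Ifnar2 133 and 174 reads at 1.78 TPM. The CAST share of Ifnar1 was thus 51.0% (95% interval 48.1 to 53.8%) and that of Ifnar2 43.3% (37.7 to 49.1%).

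The chains of the Ifng receptor were both higher on S129. Ifngr1 (chr10:19591949-19610229), the ligand-binding chain, had, in the protein-coding record, 26 CAST and 86 S129 reads, a CAST share of 23.2% (15.8 to 32.1%). Its log2(CAST/S129) was -1.73 with a standard error of 0.32 (exact binomial test, adjusted p = 6.13e-08). The level of this record, 1.01 TPM, was just past the minimum, and over exons it was 0.777 TPM. The lncRNA record of Ifngr1 (0.756 TPM, not expressed) had 8 CAST and 5 S129 reads. Ifngr2 (lncRNA record chr16:91561323-91565169), the signalling chain, had 16 CAST and 67 S129 reads over 6 exonic variants, a CAST share of 19.3% (11.4 to 29.4%) and a log2(CAST/S129) of -2.07 with a standard error of 0.40 (exact binomial test, adjusted p = 7.64e-08). The same reads stand in its protein-coding record, which was at 0.859 TPM and therefore not called, while the lncRNA record reached 2.06 TPM. Ifnar1 and Ifnar2 lie on the same stretch of chromosome 16, and within 500 kb of Ifngr2 0 of 19 other tested records were ASE at these thresholds.

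The type III receptor went the other way. Ifnlr1 (chr4:135686287-135708181) had 73 CAST and 32 S129 reads at 1.75 TPM, a CAST share of 69.5% (59.8 to 78.1%). Its log2(CAST/S129) was 1.19 with a standard error of 0.31 (exact binomial test, adjusted p = 0.000276). Of 23 other tested records within 500 kb, 4 were CAST ASE and 2 were S129 ASE. Receptor differences thus ran to both alleles, and differences between receptors were not tested.

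Among the sensors, which detect foreign or misplaced nucleic acids and other signs of infection, 8 of 40 genes were expressed. Aim2, a sensor of DNA in the cytosol, had the highest levels and was CAST ASE in both records. The protein-coding record (chr1:173455354-173466032, 18.2 TPM) had 2016 CAST and 627 S129 reads, a CAST share of 76.3% (74.6 to 77.9%), with a log2(CAST/S129) of 1.68 and a standard error of 0.07 (exact binomial test, adjusted p = 1.2e-166). The lncRNA record (32.5 TPM) had 100 CAST and 33 S129 reads and a share of 75.2% (67.0 to 82.3%), with a log2(CAST/S129) of 1.60 and a standard error of 0.29 (exact binomial test, adjusted p = 2.86e-08). Both records thus gave nearly the same share. In 96.7% of the 30 variants of the protein-coding record, and in 100% of the 3 of the lncRNA record, the base that differs from the reference genome was on S129, against 11.1% of variants in the whole table. The effect of the reference base on these shares was not tested. None of 24 other records within 500 kb of Aim2 was expressed with a variant, so the locus gives no neighbour to compare. The related HIN-200 genes (Ifi202b to Ifi214) were below 1 TPM.

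Nlrp genes encode sensors and scaffolds of inflammasomes as well as proteins of the oocyte and early embryo, and 4 of 17 genes were expressed. Nlrp4f (chr13:65177111-65205716, 8.81 TPM), one of a mouse Nlrp4 group of genes, had 879 CAST and 165 S129 reads. The CAST share was 84.2% (81.8 to 86.4%), with a log2(CAST/S129) of 2.41 and a standard error of 0.12 (exact binomial test, adjusted p = 2.77e-116). The non-reference base was on S129 in 60.7% of its 28 variants. Of 9 other tested records within 500 kb, 0 were CAST ASE, 4 were S129 ASE and 5 were biallelic. Nlrp14, a gene known from oocytes, was biallelic at 1.94 TPM (115 CAST and 102 S129 reads). Nlrp4c had a lncRNA record at 2.78 TPM without a counted variant, and its protein-coding record stayed under 1 TPM.

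Nlrp12, known to restrain inflammation, had 1716 CAST and 1732 S129 reads, a CAST share of 49.8% (48.1 to 51.5%). Its level was 7.62 TPM over exons and introns but 0.070 TPM over exons. The record contains the genes of the miR-291a to miR-295 microRNAs, which are abundant in mouse embryonic stem cells, all but 1 of them on the opposite strand. Whether the reads came from Nlrp12 or from the transcript of these microRNAs was not tested. The mature 3p sequences of 3 of them are given because they share their seed, bases 2 to 8, here in capitals.
miR-291a-3p (chr7:3218968-3218989, plus strand): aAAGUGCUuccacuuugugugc
miR-294-3p (chr7:3220691-3220712, plus strand): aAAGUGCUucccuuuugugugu
miR-295-3p (chr7:3220815-3220837, plus strand): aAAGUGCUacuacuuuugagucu
These sequences come from RefSeq (GRCm38.p6).

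Mavs, the mitochondrial adaptor of the RNA sensors, was biallelic at 7.77 TPM (184 CAST and 169 S129 reads), and its lncRNA record had 83 and 95 reads at 14.2 TPM. Ifih1, the RNA sensor that signals through Mavs, was at 0.052 TPM in its protein-coding record. Among Toll-like receptors 2 of 9 genes reached 1 TPM, both barely. Tlr4, the receptor for bacterial lipopolysaccharide, had 1 CAST and 23 S129 reads at 1.23 TPM, a CAST share of 4.17% (0.105 to 21.1%) and a log2(CAST/S129) of -4.52 with a standard error of 1.47 (exact binomial test, adjusted p = 1.28e-05). These reads came from 1 intronic variant and the level over exons was 0 TPM, so the call rests on a single position outside the mRNA. Tlr2, a receptor for bacterial lipoproteins, had 3 CAST and 11 S129 reads at 1.29 TPM and did not pass the test (exact binomial test, adjusted p = 0.11). It was the 1 tested member with a difference of at least 2-fold that was not called. Tlr3, a receptor for double-stranded RNA, was at 0.075 TPM. The kept transcript of its protein-coding record holds 387 spliced bases.

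The plot of exon levels shows which expressed members depend on introns. Of the 52 records, 42 also reached 1 TPM over exons and 10 did not, among them Ifnk, Ifngr1, Tlr4 and Nlrp12.

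**Figure D4:**
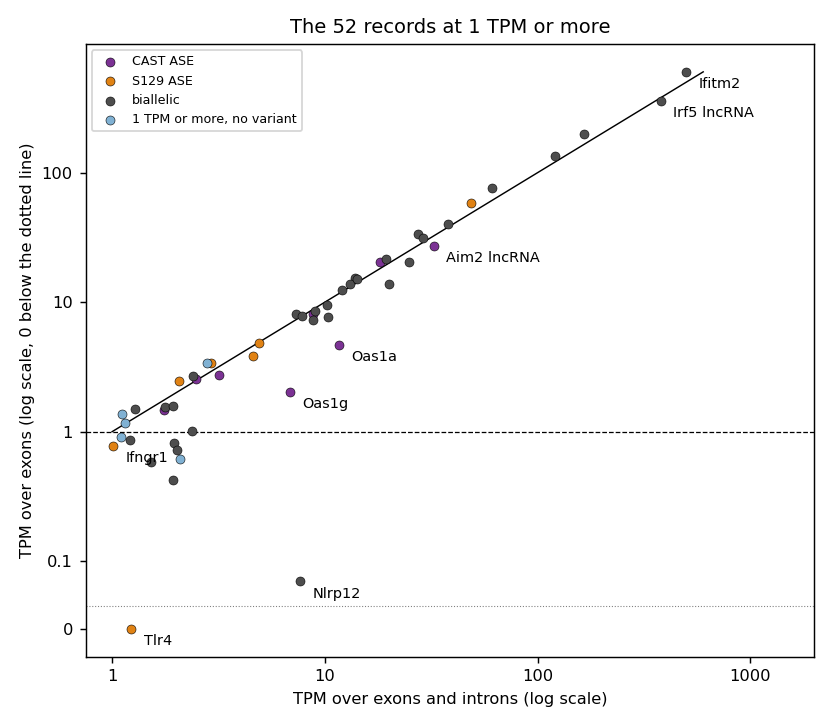
TPM over exons (vertical) against TPM over exons and introns (horizontal) for the 52 member records at 1 TPM or more, both on log scales with 0 drawn apart, coloured by allelic class. The line marks equal values. Tlr4 (0 TPM over exons) and Nlrp12 (0.070 TPM) lie farthest below it, and Oas1a and Oas1g lie below it at 4.65 and 2.04 TPM.

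The transcription factors of the pathway were mostly expressed. Stat2 (chr10:128270576-128292849, 4.88 TPM), which acts downstream of type I and III receptors, had 245 CAST and 547 S129 reads. Its CAST share was 30.9% (27.7 to 34.3%), with a log2(CAST/S129) of -1.16 and a standard error of 0.11 (exact binomial test, adjusted p = 3.84e-26). The Stat2 record overlaps no other annotated gene, and 28 of its 30 variants were exonic. The non-reference base was on S129 in 6 of the 30. Of 44 other tested records within 500 kb of Stat2, 4 were S129 ASE and 0 were CAST ASE. Irf9, its DNA-binding partner, was biallelic at 7.28 TPM (135 CAST and 173 S129 reads).

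Interferon regulatory factors, which switch on interferon genes and their targets, were expressed in 8 of 9 genes, and the tested records described here were biallelic. Irf3, which acts downstream of Mavs and Toll-like receptors, had 462 CAST and 722 S129 reads at 29.0 TPM, a CAST share of 39.0% (36.2 to 41.9%). Irf1 had, in the protein-coding record, 466 CAST and 345 S129 reads at 13.8 TPM and 421 and 306 reads in its lncRNA record. Irf5, an inflammatory regulator in immune cells, had, in the protein-coding record, 132 CAST and 211 S129 reads at 13.8 TPM over exons. The lncRNA record of Irf5 was listed at 379 TPM with 113 CAST and 144 S129 reads at 1 variant, and it lies wholly inside Tnpo3 on the opposite strand, with which 78.1% of its 75-base stretches are shared. Its level can therefore not be assigned to Irf5. The protein-coding record spans the same stretch and overlaps Tnpo3 by 1045 bases, so its allelic reads cannot be fully assigned to Irf5 either. Irf4, Irf7 and the lncRNA record of Irf8 (1.10 to 1.15 TPM) had no counted variant. The lncRNA record of Irf7 (0.810 TPM) and the protein-coding record of Irf8 (0.267 TPM) were not expressed. Irf2 was at 0.096 TPM.

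The records of the Irf2-binding proteins, co-regulators named for their binding to Irf2, were at higher levels than the Irf2 record. The kept Irf2 transcript holds 352 spliced bases, and how the choice of transcript bears on its level was not tested. Irf2bp2 (chr8:126588296-126593986, 48.9 TPM) had 343 CAST and 706 S129 reads, a CAST share of 32.7% (29.9 to 35.6%). Its log2(CAST/S129) was -1.04 with a standard error of 0.09 (exact binomial test, adjusted p = 2.43e-28), so it lay just past the 2-fold minimum. The antisense gene Gm26759 covers 47.3% of the Irf2bp2 record and was S129 ASE too, with 271 CAST and 597 S129 reads at 3.68 TPM, and reads in the shared part enter both. The other 5 tested records within 500 kb were biallelic. Irf2bpl (60.9 TPM) was biallelic with 297 CAST and 322 S129 reads, and Irf2bp1 (27.4 TPM) likewise with 53 and 45 reads.

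The effectors held the highest level and the largest allelic ratio among the tested members. The Oas1 genes, whose products include synthases of 2-5A, an activator of RNA decay, were expressed in 3 of 7 genes, and all 3 were CAST ASE. In the table, 1155 of 12067 tested genes were CAST ASE. Oas1a (chr5:120896256-120907521, 11.7 TPM) had 1291 CAST and 24 S129 reads, a CAST share of 98.2% (97.3 to 98.8%). Its log2(CAST/S129) was 5.75 with a standard error of 0.30 (exact binomial test, log10 of the adjusted p = -342). Oas1g (chr5:120876142-120887582, 6.86 TPM) had 1337 CAST and 66 S129 reads, a share of 95.3% (94.1 to 96.3%) and a log2(CAST/S129) of 4.34 with a standard error of 0.18 (exact binomial test, adjusted p = 6.6e-306). Oas1d (chr5:120914536-120921652, 2.47 TPM), a member known from mouse oocytes, had 59 CAST and 5 S129 reads, a share of 92.2% (82.7 to 97.4%) and a log2(CAST/S129) of 3.56 with a standard error of 0.67 (exact binomial test, adjusted p = 6.91e-12).

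Oas1a and Oas1g are close copies, which bears on their separation. Of the 75-base stretches of the spliced Oas1a transcript 47.6% also occur in Oas1g, and 44.6% of those of Oas1g occur in Oas1a. In Oas1d 0.822% of the stretches occur in other genes, and its 6 variants were exonic. In Oas1a 10 of 33 variants and in Oas1g 8 of 32 were exonic. In none of the 3 was a non-reference base on S129. The other genes of the cluster were under 1 TPM, with Oas1c at 0.711 TPM in its protein-coding record (7 CAST and 3 S129 reads), Oas2 at 0.872 TPM and Oas3 at 0.265 TPM.

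A CAST excess of this size was not found in the genes around the Oas1 cluster. Within 500 kb of the Oas1a start, 16 tested records belong to genes outside the members, of which 0 were CAST ASE and 1 was S129 ASE. That record was Dtx1, with 152 CAST and 306 S129 reads. The largest CAST share among the 16 was that of Rpl6, a ribosomal protein gene, at 61.5% (697 CAST and 436 S129 reads). It passed the test (exact binomial test, adjusted p = 7.57e-14) but was short of a 2-fold difference and so called biallelic. The 16 are not independent, since both Rita1 records hold the same reads, as do both Trafd1 records.

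**Figure D5:**
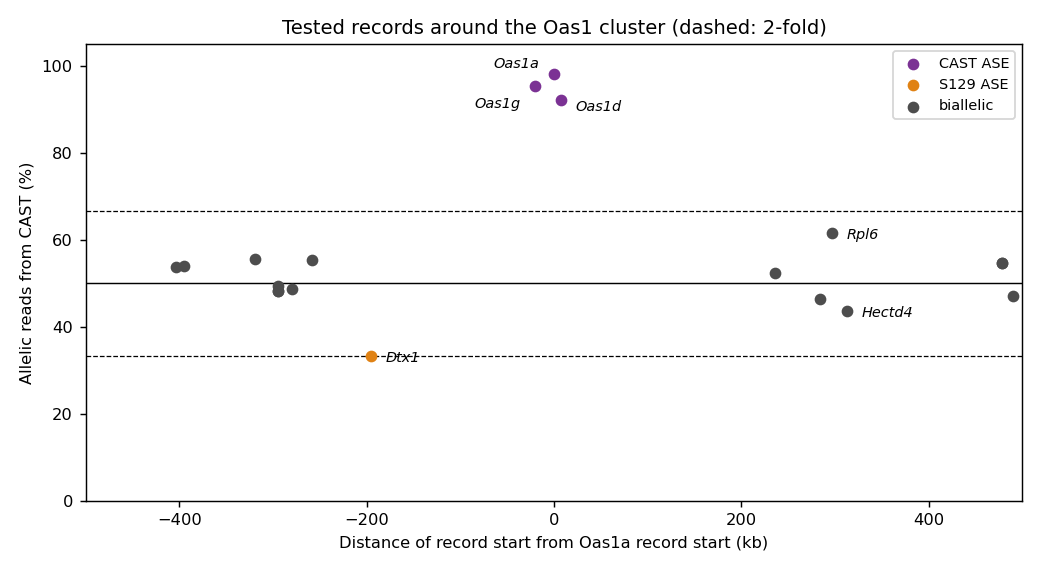
Percentage of allelic reads from CAST in tested records within 500 kb of the Oas1a record, by distance of their starts in kb. The solid line marks equal shares and the dashed lines a 2-fold difference. Oas1g, Oas1a and Oas1d lie between 92.2% and 98.2%, and the other 16 records between 33.2% and 61.5%.

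Interferon-induced transmembrane (Ifitm) genes, which hinder the entry of viruses, had the highest levels. Ifitm2 reached 497 TPM with 376 CAST and 613 S129 reads, Ifitm3 164 TPM with 1144 and 1290 reads, and Ifitm1 121 TPM with 894 and 1493 reads. These 3 were biallelic, with CAST shares of 38.0%, 47.0% and 37.5%. Ifitm2 overlaps Gm45717 on the same strand over 95.7% of its record, and 42.0% of its 75-base stretches occur in other genes. Ifitm5 (chr7:140948958-140950291, 4.61 TPM), known from bone, had 6 CAST and 19 S129 reads, a CAST share of 24.0% (9.36 to 45.1%) and a log2(CAST/S129) of -1.66 with a standard error of 0.68 (exact binomial test, adjusted p = 0.0329). It too overlaps Gm45717, over 80.2% of its record, and its adjusted p was the largest among the 15 member calls. Ifitm7 had 12 CAST and 17 S129 reads at 1.95 TPM and was biallelic.

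Guanylate-binding proteins (Gbp), interferon-induced GTPases, were under 1 TPM apart from 1 record. The lncRNA record of Gbp9 (chr5:105080136-105082763, 2.91 TPM) had 3 CAST and 51 S129 reads over 2 exonic variants. Its CAST share was 5.56% (1.16 to 15.4%), with a log2(CAST/S129) of -4.09 and a standard error of 0.86 (exact binomial test, adjusted p = 2.16e-11). It lies wholly within Gbp8 on the same strand. The protein-coding record of Gbp9 (0.705 TPM, not expressed) had 25 CAST and 87 S129 reads, and the same reads stand in the protein-coding record of Gbp8 (0.448 TPM).

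The other effectors at 1 TPM or more were biallelic. Isg20l2, a nuclease named for its likeness to Isg20, had 2613 CAST and 2148 S129 reads at 37.9 TPM, a CAST share of 54.9% (53.5 to 56.3%). Bst2, which tethers budding virus to the cell, had, in the protein-coding record, 76 CAST and 115 S129 reads at 8.76 TPM and 41 and 56 reads in its lncRNA record. Ifi30, a thiol reductase of the lysosome, had 63 CAST and 58 S129 reads at 24.9 TPM in its lncRNA record, and Ifi35 had 16 and 23 reads at 1.21 TPM. Some interferon-induced genes were near or at 0, with Isg15, Ifit3 and Ifi44l listed at 0 TPM, Ifit1 at 0.112 TPM and Ifit2 at 0.235 TPM. Others, such as Ifitm3, Bst2 and Oas1a given above, were expressed. The Ifit genes were thus under 1 TPM in 6 of 6, with the ISRE core in the promoters of Ifit1 and Ifit3 shown above.

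Apobec genes, which encode cytidine deaminases that act on RNA or DNA, were expressed in 3 of 4 genes, and their 4 tested records were biallelic. Apobec3, a restriction factor of retroviruses, had, in the protein-coding record, 271 CAST and 206 S129 reads at 19.3 TPM and 197 and 204 reads in its lncRNA record. Apobec1, known for editing of Apob mRNA, had 213 of its 336 allelic reads from CAST at 2.39 TPM, a CAST share of 63.4% (58.0 to 68.6%), short of a 2-fold difference. Apobec2 had, in the protein-coding record, 31 CAST and 48 S129 reads at 1.94 TPM and no counted variant in its lncRNA record. Apobec4 was at 0.067 TPM.

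Below 1 TPM, 15 member records had allelic reads, and 12 of them, from 11 genes, passed the fold and the test. Among all 2697 such records of every gene, 28.3 percent did so, and none of these counts as ASE here. In 4 the CAST reads were higher, namely Gbp2 (17 CAST and 1 S129 read), Gbp4 (17 and 4 reads) and both records of Ifi44 (11 and 0 reads in each). In 8 the S129 reads were higher, in Nlrp3, Ifngr2, Gbp2b, Gbp9, Gbp8, Oasl2, Nlrp4c and Nlrp9b. Highest in TPM among these were Oasl2 (0.877 TPM, 17 CAST and 55 S129 reads), Ifngr2 as given above and Nlrp4c (0.823 TPM, 27 CAST and 73 S129 reads). Nlrp3, the best-known inflammasome sensor, had 2 CAST and 38 S129 reads at 0.117 TPM. The 12 records are not independent. Both Ifi44 records hold the same reads, as do Gbp8 and Gbp9, and the Ifngr2 reads also stand in its called lncRNA record. Gbp4 lies inside Gbp8 on the same strand over 99.8% of its record, though the 2 were higher on different alleles.

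Genes of the same pathways that the name rule does not take were read from a list of 78, of which 75 were in the table with 110 records. Of these records 70 reached 1 TPM and 64 could be tested, and 5 (7.81%) from 4 genes were ASE, against 14.1 percent in the table. The CAST ASE records were both records of Ripk3, a kinase of necroptosis (55 CAST and 20 S129 reads in the protein-coding record, 17 and 5 in the lncRNA record), Parp14 (290 of 419 reads from CAST) and Trex1, an exonuclease that clears DNA from the cytosol (52 and 26 reads). The 1 S129 ASE record was the lncRNA record of Nfkb1, a subunit of NF-kappa-B (23 CAST and 46 S129 reads). This record and that of Trex1 lay exactly at the 2-fold minimum. The protein-coding Nfkb1 record, with 286 reads from CAST and 357 from S129, was not ASE. The kinases that couple receptors to STAT proteins were not ASE. Tyk2 had 522 CAST and 833 S129 reads at 6.58 TPM, Jak2 115 and 136 reads at 1.21 TPM, and the lncRNA record of Jak1 139 and 149 reads at 1.18 TPM. Socs3, a feedback inhibitor of cytokine receptors, was at 155 TPM with 1821 CAST and 1738 S129 reads.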

How the data were processed

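Total RNA-seq libraries of 2 biological replicates of F123 mESCs were processed by the authors, who aligned reads with STAR (version 2.7.2c) to mm10 (GRCm38.p6) including the F123 variants, and removed duplicates. The deposited allelic counts are GATK ASEReadCounter counts that the authors summed over the heterozygous variants of a gene record and over both replicates. The deposited TPM values were made by the authors from HTSeq counts, over exons or over exons and introns of the kept transcript. Whether HTSeq used strand is not given in the sources used here. The numbers of variants per record were deposited as counts. Columns with the authors' read fractions, p-values and log2 fold changes, which repeat such a test per record, were deposited but not used.

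Members were found by gene name in all 37178 records. Two-sided exact binomial tests against equal shares were run on all 18632 records with allelic reads with Benjamini-Hochberg adjustment (Python 3.11.15, scipy 1.17.1, pandas 2.3.3, numpy 2.4.6). ASE required 1 TPM over exons and introns, a 2-fold difference and an adjusted p of at most 0.05. CAST shares have exact (Clopper-Pearson) 95% intervals. A read at several variants is counted at each, so intervals and p-values, which take counts as independent, are too narrow, and beta-binomial alternatives were run. The tests were checked on simulated data. Overlaps and 75-base stretches were taken from GENCODE M21 (GRCm38), which held 165 of 165 member transcripts, 164 with the same coordinates. Named were ASE records, up to 4 genes per role by TPM, genes whose records differ in class, records past the fold that missed 1 criterion, and listed pathway genes called ASE. Further genes were named after their values were seen. Members, gene lists and markers were chosen with earlier results of these data known. Results for some genes are not reported here, though they stay in the counts.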

Additional observations from a re-analysis of the deposited data

How the results depend on the processing

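The 2 replicates are pooled in the table, so no replicate could be left out. No paired analysis was possible because the alleles were counted in 1 group of samples whose columns carry no replicate number. The tested member records and the ASE records of the pathway list were followed through 17 alternative settings. Their calls stayed on their side of the thresholds in 749 cases, were lost in 47 and gained in 13. Of the 47 tested member records, 32 were biallelic in the main setting, and a stricter setting cannot turn such a record into a call. Records that a setting drops were not counted as lost. The number of unchanged cases therefore does not measure how stable the ASE calls were. No direction reversed, leaving aside records that a setting drops. The 12 member records gained without a TPM minimum lie below 1 TPM and are not in these counts. The calls of Oas1a and Oas1g held in all 17 settings.

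The main setting gave 15 ASE member records (8 CAST, 7 S129), against 2249 in the table (14.1% of those tested). A minimum of 5 TPM gave 6 (5 CAST, 1 S129), against 1117 in the table (11.7%). No TPM minimum gave 27 (15 S129) of 62 member records with allelic reads, against 3020 in the table (16.2%). With an intra-gene correlation of 0.05, 6 of the 47 tested member records remained (4 CAST, 2 S129), against 487 in the table (3.06%). These 6 were Oas1a, Oas1g, Oas1d, Nlrp4f, Tlr4 and the lncRNA record of Gbp9. With a correlation of 0.01 Ifitm5 was lost. Without a fold minimum 28 of the 47 passed (13 CAST, 15 S129), against 7701 in the table (48.3%). A 3-fold minimum left 11, against 1205 in the table (7.56%). Protein-coding records alone gave 12, against 1305 in the table (12.8%). Bonferroni adjustment lost Tlr4, Ifnlr1 and Ifitm5. Of the 52 member records at 1 TPM, 28 reached 5 TPM. The 5 ASE records of the pathway list became 2 with a correlation of 0.01, 0 with 0.05, 1 with a 3-fold minimum, 28 without a fold minimum, 3 with 1 read added to each allele, 3 among protein-coding records and 1 with Bonferroni adjustment.

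Further alternatives were chosen after seeing the data. Without records that have a non-reference base on S129, 5 CAST ASE member records were left and 1409 ASE records in the table (14% of those tested). Dropped as having such a base were both Aim2 records, Nlrp4f and Stat2. In 6 of the 7 S129 ASE records every non-reference base was on CAST, and in Stat2 this held for 24 of 30 variants. The setting could therefore not drop those 6, and the effect of the reference base on the S129 calls was not tested. Among members that overlap no other gene 11 ASE records were left, 4 of them S129 ASE. With at least 3 variants per record Tlr4 and the lncRNA record of Gbp9 dropped out, as did 2 pathway records (3 left). With TPM over exons Ifngr1 and Tlr4 were lost.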
